A study of Mus musculus with 60 samples.

Results

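Calf muscle of double mutant mice (lineage Dmdmdx/Largemyd) was compared directly with calf muscle of Dmdmdx mice at 3 months of age. The comparison rests on 10 of the 60 arrays of the series, 5 per group, chosen by the lineage and age in their labels. Mice of both groups carry the Dmdmdx mutation, which removes dystrophin, and the double mutant carries the Largemyd mutation as well. All animals are labelled male and without treatment, and each Affymetrix Mouse Gene 1.0 ST array is taken as 1 animal. The other groups are C57Bl/6 (the normal control) and Largemyd at the same age, and all 4 lineages at 21 days and 6 months, each with 5 arrays. In these models the mutation is present in every cell of the animal, and the whole muscle was powdered before RNA extraction, so the values mix muscle fibres with all other cells of the calf. By their labels the groups differ in the Largemyd mutation, added where dystrophin is already lost. Their arrays also differ in Xist and in markers of other tissue, as given below.

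Dystrophin and dystroglycan form a chain from the actin skeleton of the muscle fibre through its membrane to laminin in the basement membrane. Dystroglycan holds laminin through a sugar chain that is defective in Largemyd mice, which serve as a model of dystroglycanopathy, whereas Dmdmdx mice lack the inner end of the same chain and serve as a model of Duchenne muscular dystrophy. Fibres that break are replaced by satellite cells, while fibro-adipogenic progenitors and macrophages remodel the matrix around them.

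The labelled tissue was borne out by fast fibre genes, whose mean of 23 genes lay between 12.41 and 12.58 log2 units in 9 of the 10 arrays and at 11.75 in Dmdmdx replicate 5. That array stood apart from its group. Its correlation with the others of the group fell to 0.942, against at least 0.990 among the other 4. In it the mean of 16 marrow and neutrophil markers lay 4.73 log2 units above the median of all arrays at 3 months, that of 17 lymph node markers 2.82, that of 10 bone markers 1.95 and that of 12 cartilage markers 1.93. Marrow markers were also raised in Dmdmdx replicate 3 (3.27 above the median), and Xist, the RNA of the inactive X chromosome, was high in Dmdmdx replicates 4 and 5 (10.98 and 11.84 log2 units, against 4.90 to 5.26 in the other 8) although they are labelled male. None of the 5 double mutant arrays showed either feature. Counts are therefore given with all arrays and, where they changed, without Dmdmdx replicate 5, without the high-Xist arrays, without the arrays with markers of other tissue (Dmdmdx replicates 3 and 5 here), and without both kinds, which leaves 2 Dmdmdx arrays. These are replicates 1 and 2. In replicate 1 the marrow markers still lay 1.43 log2 units above the median, under the cut of 2 that was used.

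**Figure D1:**
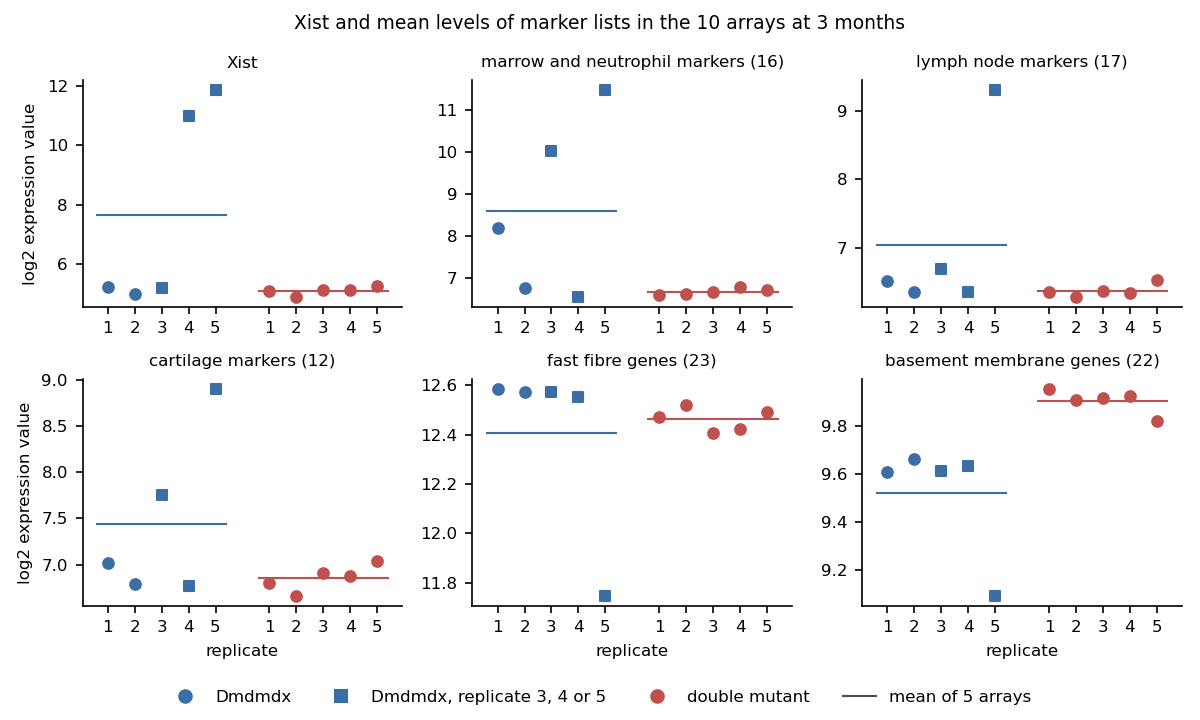
Log2 expression of Xist and mean log2 expression of 5 gene lists (number of genes in brackets) in each of the 10 arrays at 3 months; points are arrays, horizontal lines the mean of 5 arrays, and squares mark Dmdmdx replicates 3, 4 and 5. Dmdmdx replicate 5 is high in Xist (11.84) and in marrow markers (11.48) and low in fast fibre genes (11.75), while basement membrane genes lie at 9.82 to 9.95 in the double mutant and at 9.09 to 9.66 in Dmdmdx.

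Of 19938 genes tested, 402 (2.02%) differed between the double mutant and Dmdmdx at an adjusted p under 0.05 in limma, and "rose" and "fell" are used below only of such genes. More genes rose (337, 1.69%) than fell (65, 0.326%), and 27 (0.135%) changed at least 2-fold. The 5 arrays of one group lay wholly above or below those of the other for 844 genes (4.23%), of which 320 (1.6%) also passed the test. Without Dmdmdx replicate 5 the count was 206 (1.03%; 150 rose and 56 fell), without high-Xist arrays 150 (0.752%), without arrays with markers of other tissue 258 (1.29%), and without both 87 (0.436%). Every one of the 402 genes kept its direction in each of these settings, and 58 passed in all of them (52 higher and 6 lower in the double mutant). The 58 include the matrix genes Nid2, Lamb1, Col6a3, Mfap2, Mfap5, Mmp2 and Thbs4, named here after their values were seen. In whole muscle, more cells of a type and more RNA per cell cannot be told apart.

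Genes of the basement membrane, the sheet of laminin and collagen IV that wraps each fibre, rose together. Of 22 laminins, integrins and basement membrane genes 12 rose (54.5%, against 1.69% of all genes) and none fell. Their median difference was 0.49 log2 units, where that of all genes was 0.01, and 13 had arrays that did not overlap (3.15% of all genes upward). Nid2, which encodes nidogen 2, a link between laminin and collagen IV, stood at 8.69, 8.69, 8.75, 8.53 and 8.09 in Dmdmdx replicates 1 to 5 and at 9.44, 9.54, 9.40, 9.48 and 9.18 in the double mutant. Every double mutant array was above every Dmdmdx array, and the difference was 0.86±0.13 (log2±SE, adjusted p = 2.01e-05). Without Dmdmdx replicate 5 it was 0.74 (adjusted p = 0.00037), and without all doubted arrays 0.71 (adjusted p = 0.0062).

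Laminin chains for the fibre's own basement membrane were among them. Lama2, the alpha chain of muscle laminin, read 10.35, 10.20, 10.23, 10.32 and 9.06 in Dmdmdx and 10.88, 10.86, 10.59, 10.74 and 10.61 in the double mutant. The groups did not overlap, although the Dmdmdx mean is pulled down by replicate 5, and the rise was 0.70±0.14 with all arrays and 0.46 without that array (adjusted p = 0.0011 and 0.011). Without all doubted arrays its adjusted p was 0.063. Lamb1, a laminin beta chain, rose by 0.68±0.12 from 8.72 to 9.33 in Dmdmdx to 9.64 to 9.95, and it passed in each setting (0.56, adjusted p = 0.034 without all doubted arrays). Lamc1, the gamma chain that joins them, rose by 0.50±0.11 but not without Dmdmdx replicate 5 (0.34, adjusted p = 0.074). Lamb1 and Lamc1 are named after their values were seen.

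Nid1 (nidogen 1) and Col15a1 (collagen XV, at the outer face of the basement membrane) completed the largest rises of the list. Nid1 rose by 0.71±0.14, or 0.51 without Dmdmdx replicate 5 (adjusted p = 0.0014 and 0.021). Col15a1 lay at 8.93 to 9.51 in Dmdmdx and 9.94 to 10.28 in the double mutant, a rise of 0.77±0.19 (adjusted p = 0.015) that became 0.67 with an adjusted p of 0.090 without that array. Lama4, Col18a1, Hspg2 (perlecan) and Bcam, named after their values were seen, rose by 0.49 to 0.50. Integrin genes did not pass: Itga7, the muscle partner of laminin, differed by 0.30, Itgb1 by 0.19 and Itga6 by -0.12. Over the list, 7 of 22 genes rose without Dmdmdx replicate 5 (0.752% of all genes), 4 without high-Xist arrays (0.562%), 9 without arrays with other tissue (0.813%) and 2 without both (Nid2 and Lamb1; 0.316%). The median stayed between 0.31 and 0.32 in these 4 settings.

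The 2 chains of collagen IV, which form the network of the basement membrane together, were measured by Col4a1 and Col4a2. Their values moved side by side: Col4a1 was at 9.49, 9.46, 9.46, 9.50 and 9.02 in Dmdmdx and 9.93, 9.88, 9.98, 10.04 and 9.73 in the double mutant. Col4a2 was at 9.26, 9.19, 9.23, 9.19 and 8.64 against 9.66, 9.63, 9.70, 9.80 and 9.47. Neither gene overlapped between groups, and the rises were 0.52±0.11 and 0.55±0.11 (adjusted p = 0.0031 and 0.0019), or 0.43 for each without Dmdmdx replicate 5 (adjusted p = 0.037 and 0.028). Without high-Xist arrays the adjusted p was 0.071 and 0.074. They are named after their values were seen. The genes lie side by side on opposite strands of chromosome 8, and their start windows share 78 bases. The windows, 250 bases before to 50 after each start in RefSeq's annotation of GRCm38.p6, are printed because the pair moved together, with capitals on matches to CCAAT or GGGCGG on either strand; chr8:11312777-11313076 on the minus strand is that of Col4a1 and chr8:11312555-11312854 on the plus strand that of Col4a2.
Col4a1: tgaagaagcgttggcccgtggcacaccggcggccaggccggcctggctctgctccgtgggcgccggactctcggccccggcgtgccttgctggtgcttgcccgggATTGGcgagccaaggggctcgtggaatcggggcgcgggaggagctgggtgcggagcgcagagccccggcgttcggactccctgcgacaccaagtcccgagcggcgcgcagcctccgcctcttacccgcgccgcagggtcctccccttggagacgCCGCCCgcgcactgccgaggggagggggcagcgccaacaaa
Col4a2: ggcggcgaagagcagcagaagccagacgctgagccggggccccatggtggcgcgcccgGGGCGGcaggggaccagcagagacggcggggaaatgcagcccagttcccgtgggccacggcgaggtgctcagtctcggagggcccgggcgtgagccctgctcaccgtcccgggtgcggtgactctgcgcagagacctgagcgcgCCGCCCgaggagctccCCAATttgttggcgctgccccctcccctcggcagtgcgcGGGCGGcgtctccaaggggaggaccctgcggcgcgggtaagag
CCAAT or its complement stands once in each window, and GGGCGG or its complement 1 time in that of Col4a1 and 3 times in that of Col4a2. Of 32851 such windows, 37.4% hold the first motif and 35.7% the second, which do not overlap each other here. The match to GGGCGG of Col4a1 and the last one of Col4a2 are the same site, within the 78 shared bases. G and C make up 74.0% and 73.7% of the windows of Col4a1 and Col4a2, where the median of all windows was 52.7%.

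Interstitial matrix, which lies between the fibres, rose as well. Of 38 fibrillar collagens and matrix genes 13 rose (34.2%) and none fell, with a median difference of 0.33. Col6a3, a chain of the collagen VI microfibrils that tie the basement membrane to the interstitium, was at 10.36, 10.67, 10.56, 10.02 and 9.30 in Dmdmdx and at 11.25, 11.30, 11.27, 11.48 and 11.16 in the double mutant. All 5 double mutant arrays were higher, by 1.11±0.18 (adjusted p = 0.00011), and the gene passed in each setting (0.78, adjusted p = 0.047 without all doubted arrays). Its partner chains Col6a1 and Col6a2, named after their values were seen, rose by 0.60±0.13 and 0.65±0.15. Col6a1 also passed without Dmdmdx replicate 5 (0.53, adjusted p = 0.030), while Col6a2 was just above the threshold (0.55, adjusted p = 0.052).

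Other matrix genes showed the same order of arrays. Mfap4, an elastic fibre protein, ran from 7.88 to 9.41 in Dmdmdx and from 9.94 to 10.44 in the double mutant and rose by 1.15±0.26, although without Dmdmdx replicate 5 it did not pass (0.89, adjusted p = 0.087). Col14a1, a collagen on the surface of fibrils, rose by 0.88±0.17 from 9.72 to 10.09 up to 10.69 to 11.06. It passed without Dmdmdx replicate 5 (0.82, adjusted p = 0.010) but not without all doubted arrays (0.84, adjusted p = 0.081). Col8a1, a short-chain collagen, rose by 0.90±0.20 (0.81, adjusted p = 0.032 without replicate 5).

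The main fibrillar collagen genes of scar tissue were less clear. Col3a1 rose by 0.78, whereas Col1a1 and Col1a2 differed by 0.28 and 0.26 and Fn1 (fibronectin) by 0.22, none of which passed. These 4 are named after their values were seen. Without Dmdmdx replicate 5 the list kept 8 risers of 38, without high-Xist arrays 6, without arrays with other tissue 10 and without both 3, and its median lay between 0.26 and 0.35.

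Matrix proteins outside the list were among the 12 largest rises of genes whose arrays did not overlap. Cilp, which binds growth factors in cartilage and muscle matrix, was at 9.96, 9.90, 9.92, 10.38 and 8.97 in Dmdmdx and at 11.01, 11.20, 11.30, 11.01 and 10.99 in the double mutant. It rose by 1.28±0.21, Fbln7 (fibulin 7) by 1.17±0.17 and Hmcn2 (hemicentin 2) by 1.15±0.18. Each of the 3 also passed without all doubted arrays, with differences of 1.17, 1.08 and 0.88. Thbs4, a thrombospondin of muscle and tendon matrix that stands in the list of tendon markers, rose from 11.01 to 12.36 up to 12.76 to 12.98. Its difference was 0.92±0.15, or 0.72 without all doubted arrays (adjusted p = 0.0044), and the other 11 tendon markers did not pass.

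**Figure D2:**
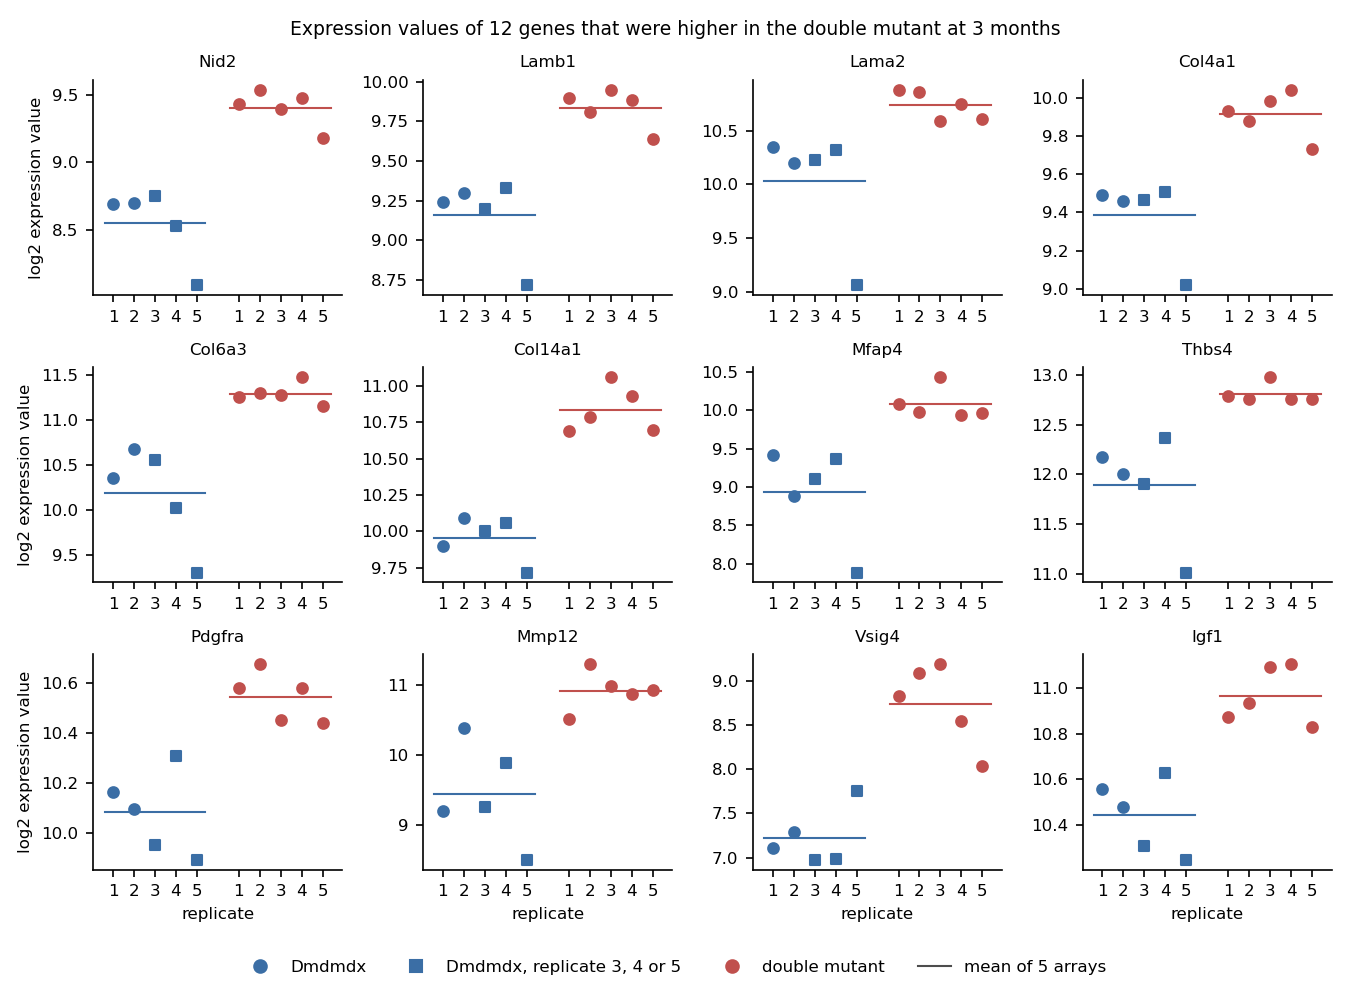
Log2 expression values of 12 genes in the 5 Dmdmdx (blue) and 5 double mutant (red) arrays at 3 months; points are arrays, lines the mean of 5 arrays, and squares mark Dmdmdx replicates 3, 4 and 5. In each panel all double mutant arrays lie above all Dmdmdx arrays, and for Lama2 the Dmdmdx values are 10.20 to 10.35 in replicates 1 to 4 and 9.06 in replicate 5.

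Markers of fibro-adipogenic progenitors, the mesenchymal cells that make most of this matrix, were raised too. Of 20 markers 8 rose (40.0%) with a median of 0.40. Pdgfra, the receptor that defines these cells, read 10.16, 10.10, 9.95, 10.31 and 9.89 in Dmdmdx and 10.58, 10.67, 10.45, 10.58 and 10.44 in the double mutant. The gap between the groups was small but complete, and the rise was 0.46±0.11 (adjusted p = 0.0085). It was 0.41 without Dmdmdx replicate 5, with an adjusted p of 0.053. Mfap5, a microfibril protein of the list, rose by 0.79±0.15 and passed in each setting (0.55, adjusted p = 0.0062 without all doubted arrays), and Smoc2, a matricellular protein, rose by 0.65±0.14 (0.49, adjusted p = 0.061 without replicate 5). Col6a1, Col6a2 and Mfap5 stand in the matrix list as well. Without Dmdmdx replicate 5, 3 of 20 passed, and 1 without all doubted arrays, with medians of 0.33 and 0.37.

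In fibrosis signalling 4 of 22 genes rose (18.2%, median 0.17): Ltbp4 (0.68±0.14) and Ltbp3 (0.37±0.07), which store latent TGF-beta in the matrix, and the PDGF receptors Pdgfra and Pdgfrb (0.46±0.09). Ltbp4, Ltbp3 and Pdgfrb passed without all doubted arrays too (0.65, 0.33 and 0.40, adjusted p = 0.036, 0.041 and 0.044). Tgfb1, named after its value was seen, differed by 0.05. In growth signalling 5 of 23 rose (21.7%, median 0.13), among them Fstl1 (0.56±0.16), a secreted follistatin relative, Igfbp4 (0.53±0.11), an IGF-binding protein, Igf1 (0.52±0.13), the growth factor itself, and Igf2r (0.35±0.10), which clears IGF2. Igf1 was at 10.25 to 10.63 in Dmdmdx and 10.83 to 11.10 in the double mutant and did not pass without Dmdmdx replicate 5 (0.47, adjusted p = 0.069), and of the 5 only Igfbp4 did (0.58, adjusted p = 0.0024).

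Matrix proteases rose as a part of their list. Of 25 proteases and inhibitors 5 rose (median 0.28). Mmp12, the elastase of macrophages, was at 9.21, 10.39, 9.26, 9.89 and 8.51 in Dmdmdx and 10.51, 11.30, 10.98, 10.87 and 10.93 in the double mutant. Every double mutant array was above every Dmdmdx array, the rise was 1.46±0.35 (adjusted p = 0.012), and it did not pass without Dmdmdx replicate 5 (1.23, adjusted p = 0.088). Mmp19 rose by 1.01±0.18, Mmp3 (stromelysin 1) by 0.88±0.20 and Mmp2 (gelatinase A) by 0.55±0.10. All 3 passed without that array (0.82, 0.85 and 0.44), and Mmp2 in each setting.

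Macrophage markers passed in 1 case only. Of 32 markers 1 rose (3.12%), with a median of 0.26. The mean of the list was 9.73 to 10.31 in Dmdmdx and 9.96 to 10.29 in the double mutant, which overlap. The riser was Vsig4, a complement receptor of resident macrophages, at 7.11, 7.29, 6.97, 6.98 and 7.76 against 8.83, 9.09, 9.19, 8.55 and 8.04. It was higher in every double mutant array, by 1.52±0.32 (adjusted p = 0.0027). It passed without Dmdmdx replicate 5, and without all doubted arrays the adjusted p was 0.054. Complement genes had 2 risers of 18, C1ra (0.64±0.12) and C1qa (0.63±0.17), a protease and a recognition chain of the classical pathway, and only C1ra passed without Dmdmdx replicate 5 (0.56, adjusted p = 0.0096). In the list of chemokines and cytokines, Cxcl14 alone of 26 rose (0.70±0.15), and it lost its call without that array (0.51, adjusted p = 0.061).

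H2-Ea, an alpha chain of MHC class II, had the largest rise of all genes (3.52±0.89, adjusted p = 0.018), which did not pass without high-Xist arrays (adjusted p = 0.15). It was at 11.777, 12.0005 and 11.776 in double mutant replicates 1, 2 and 5 and at 6.02 and 6.22 in replicates 3 and 4, against 5.85 to 6.35 in Dmdmdx. The double mutant group is thus split, and its low arrays lie among those of Dmdmdx. None of the other 12 MHC genes passed.

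Few genes of the muscle fibre itself passed. Dmd, which encodes dystrophin, was at 8.56, 8.60, 8.70, 8.65 and 7.41 in Dmdmdx and at 8.76, 8.87, 8.33, 8.48 and 8.74 in the double mutant, a difference of 0.25±0.18 that did not pass (adjusted p = 0.62). Utrn, the dystrophin relative, differed by 0.08±0.07 and Dag1, which encodes dystroglycan, by 0.20±0.10 (adjusted p = 0.76 and 0.42). Sntb2, a syntrophin, was the 1 riser among 14 genes of the dystrophin-glycoprotein complex (0.27±0.07), and its groups overlapped. Nos1, the muscle nitric oxide synthase that syntrophin anchors, is named after its values were seen. It was at 8.44, 8.53, 8.50, 8.66 and 7.44 in Dmdmdx and 7.56, 7.60, 7.57, 7.48 and 7.90 in the double mutant. Apart from Dmdmdx replicate 5 every Dmdmdx array was above every double mutant array. With all arrays the difference of -0.69±0.21 did not pass (adjusted p = 0.074), and without that array it did (-0.91, adjusted p = 0.011).

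Regeneration genes showed 1 riser of 24, Myh8, the perinatal myosin (0.96±0.25), and Myh3, the embryonic myosin, differed by 0.48±0.36 (adjusted p = 0.67). Myf5, a regulator of satellite cells, was the 1 riser of 24 in its list (0.76±0.18). Neither Myh8 nor Myf5 passed without Dmdmdx replicate 5 (0.65 and 0.50, adjusted p = 0.22 and 0.14), an array in which Myf5 was 6.36 against 7.53 to 7.71 in the other 4. Sln, an inhibitor of the calcium pump, was the 1 riser of 16 slow fibre genes (0.89±0.19, from 6.12 to 6.84 up to 7.22 to 7.74), and it also passed without that array (0.79, adjusted p = 0.027). It stands in the list of stress genes as well. No gene passed among 23 fast fibre genes, 72 of oxidative phosphorylation, 32 of fatty acid oxidation, 23 of the tricarboxylic acid cycle, 23 of glycolysis and 25 of excitation-contraction coupling. At an unadjusted p under 0.05 the counts in limma were 2, 3, 6, 0, 1 and 2, where 12.8% of all genes were below it. Their medians lay between -0.03 and 0.13 with all arrays and between -0.15 and -0.02 without Dmdmdx replicate 5. The medians of regenerating sarcomere and slow fibre genes, 0.36 and 0.47 with all arrays, were 0.01 and 0.12 without it. In Dmdmdx replicates 1 to 4 the fast fibre mean was 12.55 to 12.58, against 12.41 to 12.52 in the double mutant. The tricarboxylic acid cycle mean was 11.14 to 11.20 against 10.88 to 11.10, and the glycolysis mean 11.49 to 11.53 against 11.16 to 11.37. Each lay lower in every double mutant array than in those 4, and lowest in replicate 5 (11.75, 10.42 and 10.70). Means of oxidative phosphorylation, fatty acid oxidation and excitation-contraction coupling overlapped. Among 16 nerve and Schwann cell markers Egr2, which drives myelination, and Gldn, a protein of the node of Ranvier, rose (0.58±0.11 and 0.42±0.12), and Egr2 also passed without Dmdmdx replicate 5 (0.60, adjusted p = 0.0028).

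**Figure D3:**
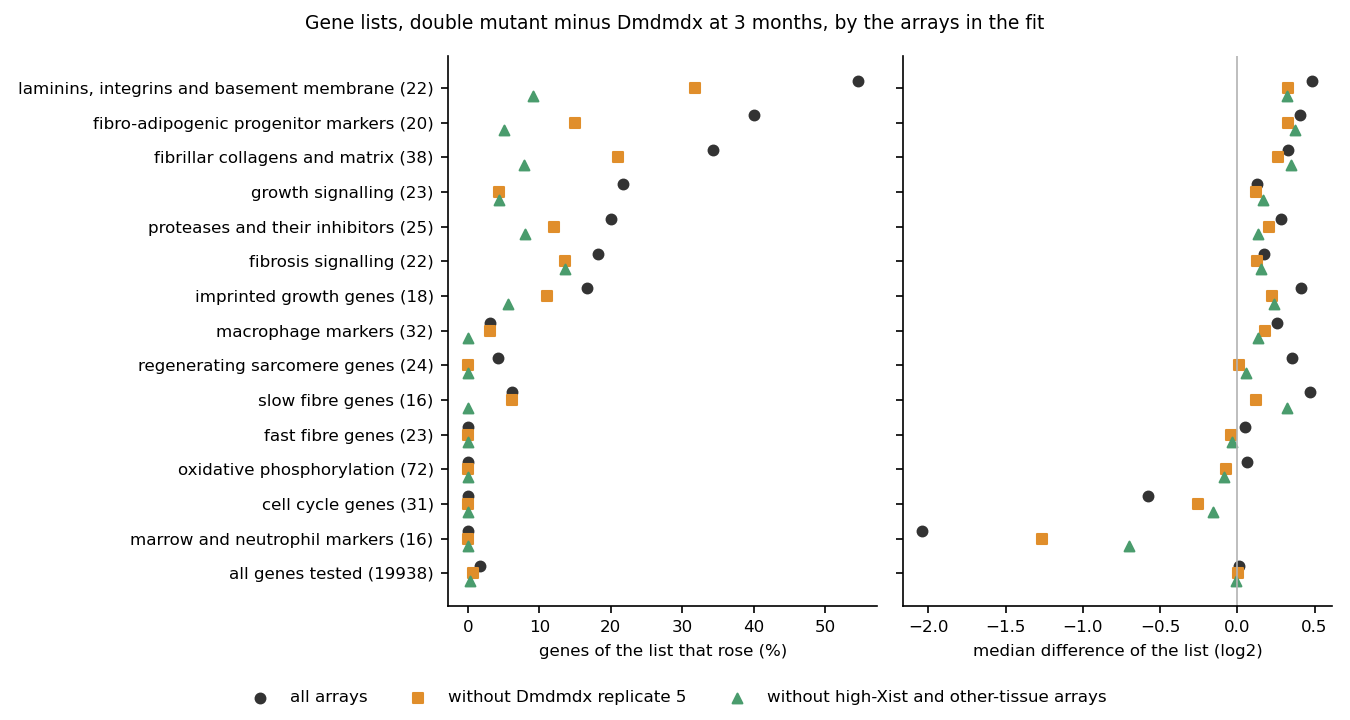
Share of each gene list that rose (left, %) and median log2 difference of the list (right) for the double mutant minus Dmdmdx at 3 months, with the number of genes in brackets and symbols for 3 sets of arrays. Basement membrane genes go from 54.5% with all arrays to 2 of 22 genes without the doubted arrays while their median goes from 0.49 to 0.32, and the marrow median goes from -2.04 to -0.70.

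The falls held fewer genes (65, or 56 without Dmdmdx replicate 5 and 96 without arrays with other tissue). Alas2, the first enzyme of haem synthesis in red cells, read 8.35, 7.93, 9.57, 8.48 and 11.58 in Dmdmdx and 7.06, 7.28, 7.76, 7.36 and 6.90 in the double mutant. The groups did not overlap, but the highest values were those of Dmdmdx replicates 5 and 3, in which the mean of 4 red cell markers was 10.60 and 8.90 against 7.00 to 7.62 in the other 3 and 6.77 to 7.05 in the double mutant. The fall of 1.91 on the log2 scale (SE 0.53, adjusted p = 0.038) became a difference of -1.31 without Dmdmdx replicate 5 (adjusted p = 0.29). Cpox, a later enzyme of the same pathway, and Xk, a red cell membrane protein, fell with it (differences of -0.78±0.22 and -0.80±0.15), and Xk passed without all doubted arrays (-0.56, adjusted p = 0.048). In the bone list Alpl and Sp7 fell and in the cartilage list Cnmd and Acan, and none of these 4 passed in any setting without doubted arrays. None of 16 marrow and neutrophil markers passed, but 15 had an unadjusted p under 0.05 in limma (12.8% of all genes), all 16 were lower and their median was -2.04. The defining marrow genes Ngp and S100a8 were at 13.18 and 12.74 in Dmdmdx replicate 5 and at most 6.27 and 7.25 in the double mutant. The part of this tissue in each single fall was not tested.

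Cell cycle genes were lower without passing: 0 of 31 passed, 7 had an unadjusted p under 0.05 in limma (12.8% of all genes), all 31 were lower, and the median was -0.58 with all arrays and -0.16 without all doubted arrays. The mean of the list was 9.99 in Dmdmdx replicate 5 and 7.92 to 8.52 in replicates 1 to 4, against 7.80 to 8.25 in the double mutant. Rsad2, an antiviral gene and the 1 of 21 interferon-induced genes that fell, differed by -1.44±0.38, and by -1.02 (adjusted p = 0.23) without Dmdmdx replicate 5, whose value was 10.92 against 8.49 to 9.08. Cd24a, a surface protein of blood and regenerating cells, and Klra2, a receptor of natural killer cells, fell (-0.71±0.18 and -1.21±0.29). Neither passed without that array (adjusted p = 0.15 and 0.12). Of 21 T and NK cell markers the arrays of 1 did not overlap, upward (3.15% of all genes), and it did not pass. The mean of that list was 6.65 to 7.71 in Dmdmdx, highest in replicate 5, and 6.73 to 6.90 in the double mutant, which overlap.

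Other falls passed in more of the settings. B3gnt3, a glycosyltransferase that extends sugar chains, was at 8.67, 8.53, 8.16, 8.45 and 8.09 in Dmdmdx and at 7.48, 7.43, 7.52, 7.47 and 7.58 in the double mutant. All double mutant arrays were lower, and the difference of -0.88±0.10 (adjusted p = 1.35e-08) was -1.11 without all doubted arrays. Tlcd4 (-0.96±0.17) and Tmem267 (-1.01±0.24) passed without Dmdmdx replicate 5 (-0.92 and -1.12, adjusted p = 0.0024 and 0.012), though not without all doubted arrays. Klri1, another killer cell receptor, fell by 0.82 on the log2 scale and passed without all doubted arrays (-0.83, adjusted p = 0.014), though not without replicate 5 alone (adjusted p = 0.053). Cyp4f18, a fatty acid hydroxylase, fell by 1.32, with double mutant replicate 1 at 8.46, next to the lowest Dmdmdx value of 8.47, and the other 4 at 7.11 to 7.45. It was at an adjusted p of 0.18 without Dmdmdx replicate 5. Akr1e1, an aldo-keto reductase, was split within the double mutant, at 4.88 and 4.73 in replicates 1 and 5 and 7.17 to 7.40 in replicates 2 to 4, below 7.53 to 8.34 in Dmdmdx (-1.71±0.43, adjusted p = 0.016).

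Several of these 12 largest rises belong to no list. Snord53, a small nucleolar RNA that guides modification of ribosomal RNA, was at 9.27, 9.42, 9.81, 8.86 and 9.26 in Dmdmdx and 10.97, 11.29, 11.10, 11.44 and 11.04 in the double mutant. The groups did not overlap, and the rise was 1.84±0.28 (adjusted p = 3.53e-05), or 1.82 without all doubted arrays (adjusted p = 0.040). Pianp, a membrane protein that binds an inhibitory immune receptor, rose by 1.29±0.15 from 6.86 to 7.25 up to 8.25 to 8.52. Ocel1 had the smallest adjusted p of these genes (1.08±0.08, adjusted p = 4.92e-14), with 7.89 to 8.16 against 8.82 to 9.21. Klrb1a, a killer cell receptor, rose by 1.09±0.16, and double mutant replicate 2 was the highest of its group at 7.01. Pianp, Ocel1 and Klrb1a also passed without all doubted arrays, with differences of 1.18, 1.09 and 1.01. Hlf, an output gene of the circadian clock, was the 1 riser among 15 clock genes (0.81±0.17), with 6.97 to 7.10 in Dmdmdx and 7.70 to 7.94 in the double mutant. It did not pass without high-Xist arrays (0.79, adjusted p = 0.066). Of the 15 clock genes, the arrays of 8 did not overlap upward and those of 1 downward, as for 3.15% and 1.08% of all genes. The mean of the list was 8.29 to 8.90 in Dmdmdx, lowest in replicate 5, and 8.99 to 9.17 in the double mutant.

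Imprinted genes, which are read from 1 parental copy, had 3 risers of 18 (16.7%, median 0.41): Meg3, Dlk1 and Zim1. Meg3, a long noncoding RNA read from the maternal copy, was at 8.91, 8.72, 9.06, 8.65 and 8.15 in Dmdmdx and 9.68, 9.98, 10.17, 10.04 and 9.83 in the double mutant. Dlk1, a paternally read inhibitor of Notch signalling and adipogenesis, was at 8.60, 8.07, 8.25, 8.22 and 8.06 against 9.30, 9.02, 9.89, 8.99 and 9.32. Both were higher in each double mutant array, by 1.24±0.20 and 1.06±0.18 (adjusted p = 8.37e-05 and 0.00015). Meg3 passed in each setting, Dlk1 in all but that without all doubted arrays (0.97, adjusted p = 0.067). Zim1 rose by 0.74±0.19 but not without Dmdmdx replicate 5 (0.49, adjusted p = 0.21), where it was 7.20 against 8.37 to 8.54.

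Meg3 and Dlk1 are neighbours at one end of an imprinted stretch of chromosome 12 that ends at Dio3 and holds a large cluster of miRNA genes, so the stretch was read as a whole after these values were seen. Of 47 genes tested there 4 rose and none fell, and 46 (97.9%) lay above 0, where 53.2% of all genes did. Without Dmdmdx replicate 5, 2 of the 47 rose (Dlk1 and Meg3), and without all doubted arrays only Meg3, with 46 and 39 above 0. The median was 0.19 with all arrays, 0.12 without that array and 0.09 without all doubted ones. Since neighbouring probe sets can read the same transcripts, the 47 values are not independent. Among 40 miRNA genes 39 lay above 0 (33 without all doubted arrays), where 180 of all 291 miRNA genes did with all arrays. The arrays of 7 of the 40 did not overlap, upward. Over the whole array 9 of 291 miRNA genes were so placed, these 7 included. Some of the 7 had low values and small differences, such as Mir376c (2.89 in Dmdmdx against 2.96) and Mir376b (3.56 against 3.84), and neither passed. The other risers were DQ267102, a small nucleolar RNA (0.79±0.20, or 0.66 with an adjusted p of 0.14 without Dmdmdx replicate 5), and Mir382 (0.70±0.19). Mir382 was at 5.08, 5.01, 5.11, 5.09 and 4.47 in Dmdmdx and 5.41, 6.01, 6.01, 5.45 and 5.41 in the double mutant. Its groups did not overlap, although without Dmdmdx replicate 5 it did not pass (0.58, adjusted p = 0.17). Mir323 and Mir377 came next by size (0.67±0.20 and 0.69±0.20, adjusted p = 0.060 and 0.062), and Rian, another noncoding RNA of the cluster, differed by 0.51±0.20. Higher values were not particular to 3 months. With all arrays Meg3 and Dlk1 differed by 0.75 and 1.09 at 21 days and by 0.03 and 0.38 at 6 months. Mir134 and Mir136 differed by 1.21 and 1.72 at 21 days, against 0.31 and 0.09 at 3 months. Their differences of differences were -0.90 and -1.63 (adjusted p = 0.0024 and 0.0032 in limma). Mir323 and Mir377 were smaller at 21 days (0.37 and 0.50).

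The mature miRNAs of these 3 genes are printed to show that no seed is shared among them, with the seed (bases 2 to 8) in capitals; all 40 miRNA genes matched RefSeq's table on GRCm38.p6. They lie on the plus strand at chr12:109712523-109712578 (Mir323), chr12:109733781-109733840 (Mir382) and chr12:109740515-109740574 (Mir377), each range running from the first to the last base of its mature arms.
mmu-miR-323-5p: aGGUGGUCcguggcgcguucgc
mmu-miR-323-3p: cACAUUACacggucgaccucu
mmu-miR-382-5p: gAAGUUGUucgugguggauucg
mmu-miR-382-3p: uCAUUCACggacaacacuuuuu
mmu-miR-377-5p: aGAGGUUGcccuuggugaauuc
mmu-miR-377-3p: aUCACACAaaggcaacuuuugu
The values do not tell a mature miRNA from its precursor, so they describe the genes and not the arms.

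**Figure D4:**
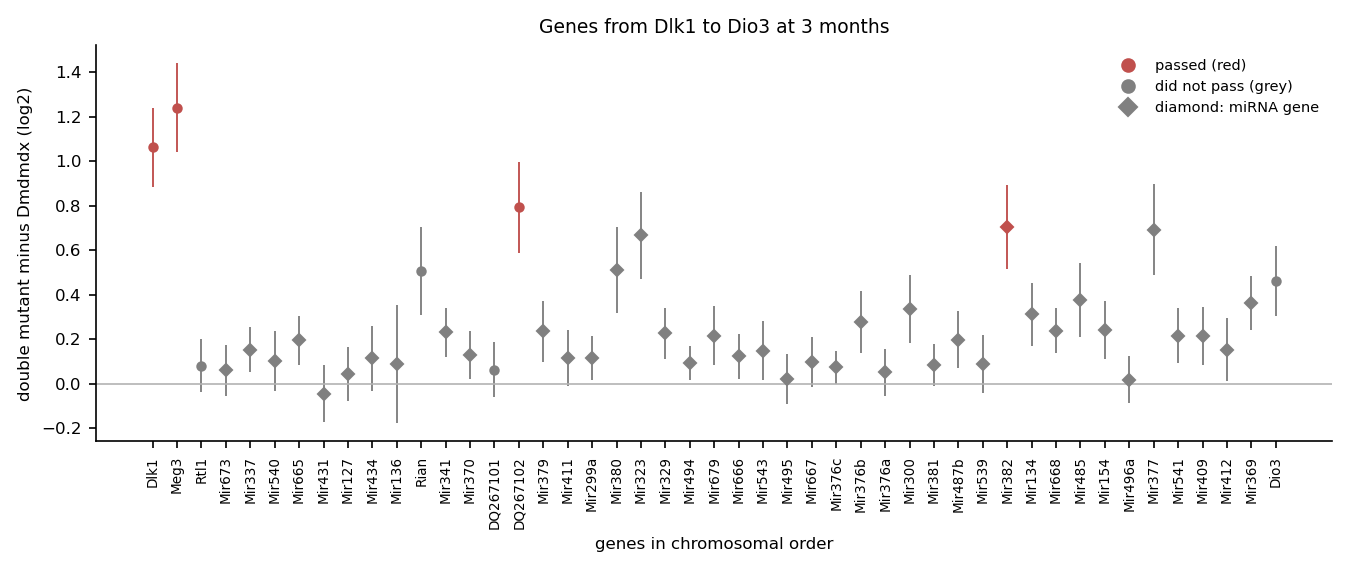
Log2 difference (points) and standard error (bars) of the double mutant minus Dmdmdx at 3 months for 47 genes in chromosomal order from Dlk1 to Dio3; red points passed at an adjusted p under 0.05, and diamonds are miRNA genes. Meg3 (1.24) and Dlk1 (1.06) stand highest, and 46 of the 47 points lie above 0 with all arrays.

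The same mutation was added to a dystrophin-positive background in Largemyd and C57Bl/6 at 3 months, a comparison that uses none of these 10 arrays. Its C57Bl/6 arrays share features with those of Dmdmdx. Their marrow markers lay 1.08 to 4.16 log2 units above the median of the age, against -0.44 to 0.33 in Largemyd. Replicate 3 was over the cut of 2, replicate 5 had high Xist (10.60), and the others lay at 1.09 to 1.58. The part of this in the shared calls and in the differences of differences was not tested. Of the 402 genes 392 had the same sign there and 301 (74.9%) passed in the same direction, where 18.9% of all genes passed in either direction. They were 7.98% of the 3773 genes that passed there. Without all doubted arrays of every group the share was 66 of 87 (75.9%), where 19.9% of all genes passed. Basement membrane genes rose there in 15 of 22 cases (median 0.46), where 10.6% of all genes did. Nid2 rose by 0.99 in that comparison, Col4a1 by 0.73, Lama2 by 0.77, Pianp by 1.08 and Ocel1 by 1.16. Snord53 and Meg3 did not pass there (0.15 and 0.32, adjusted p = 0.80 and 0.31).

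The test of the difference between both comparisons passed for 635 genes (3.18%). In it 263 genes (1.32%) had the higher value where dystrophin was lost, and 372 (1.87%) the lower. None of 22 basement membrane genes and none of 20 fibro-adipogenic progenitor markers passed in this test (medians -0.08 and -0.17; 4 and 2 had an unadjusted p under 0.05 in limma, as 14.8% of all genes did). Macrophage markers were the opposite case: 20 of 32 passed, all lower, with a median of -1.36. Of the 32, 30 rose from C57Bl/6 to Largemyd (median 1.45) and 1 from Dmdmdx to the double mutant. Without all doubted arrays 24 of 32 passed. Gpnmb, a glycoprotein of lipid-laden macrophages, was at 9.74 to 11.90 in Dmdmdx and 11.14 to 11.67 in the double mutant (0.42±0.28), while it rose by 3.41 from C57Bl/6 to Largemyd, and the difference of differences was -2.98 (adjusted p = 4.98e-06). For C3ar1, a complement receptor, it was -2.57 and for Mmp12 -2.62.

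Proteases and inhibitors passed as lower in 12 of 25 cases, regenerating sarcomere genes in 9 of 24, complement genes in 7 of 18 and matrix genes in 5 of 38. Myh3 gave -2.50 (adjusted p = 0.0027), having risen by 2.98 from C57Bl/6 to Largemyd. Clock genes passed as higher in 6 of 15 cases (median 0.78), with 4 falling from C57Bl/6 to Largemyd. Hlf differed by 1.45 and Ciart, a repressor of the clock, by 1.81; without all doubted arrays 1 of 15 passed. Snord53 differed by 1.69 (adjusted p = 0.0079), Rny1, a Y RNA, by 1.87 and Nxpe4 by 1.84. Akr1e1 had the largest size of the named genes (-4.69, adjusted p = 2.91e-06), as it rose by 2.98 in Largemyd, and Klk1b22, a kallikrein at 4.93 to 5.56 in these 10 arrays, differed by -2.89. Nos1 fell by 1.71 from C57Bl/6 to Largemyd, and its difference of differences was 1.02 (adjusted p = 0.041).

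**Figure D5:**
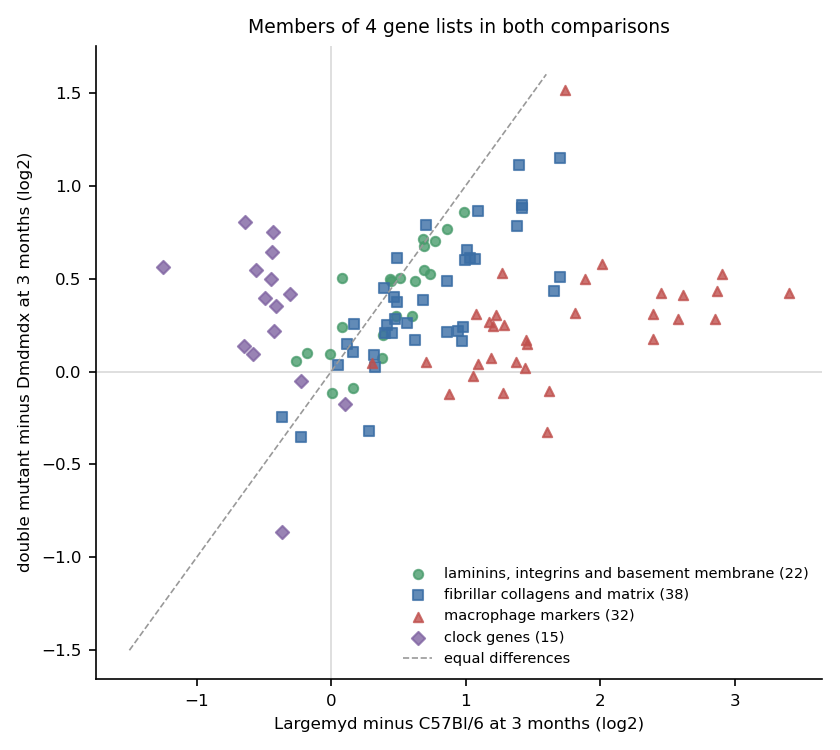
Log2 difference of the double mutant from Dmdmdx (vertical axis) against that of Largemyd from C57Bl/6 (horizontal axis) at 3 months; each point is a gene of 1 of 4 lists, with the number of genes in brackets, and the dashed line marks equal differences. Basement membrane genes lie near the line (median difference of differences -0.08), macrophage markers far below it (-1.36) and clock genes above it (0.78).

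Read at the other ages in separate arrays, the 402 genes split. At 21 days 181 had the same sign, 62 passed in the same direction and 76 in the opposite one, where 27.5% of all genes passed. At 6 months 376 had the same sign and 146 (36.3%) passed in the same direction, none in the opposite, where 4.58% of all genes passed. Without all doubted arrays 11 of 87 passed in the same direction and 3 in the opposite one at 21 days, and 43 of 87 in the same direction at 6 months. In that setting 8.21% and 3.51% of all genes passed at these ages. The change with age itself was tested as the difference at 3 months minus that at 21 days, since array levels differ between ages. It passed for 2233 genes (11.2%), of which 1567 (7.86%) were higher at 3 months and 666 (3.34%) lower.

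Basement membrane genes were higher at 3 months in 15 of 22 cases (median 0.55), fibro-adipogenic progenitor markers in 11 of 20, matrix genes in 18 of 38 and macrophage markers in 13 of 32. At 21 days 10 of the 22 basement membrane genes had fallen in the double mutant (13.6% of all genes fell) and 1 had risen. These counts are with all arrays. At that age Dmdmdx replicates 1, 3 and 5 and double mutant replicates 2, 3 and 5 had raised markers of other tissue. Col15a1 was -1.09 at 21 days and 0.77 at 3 months (difference 1.86, adjusted p = 8.32e-06), and Nid2 went from -0.54 to 0.86. Without all doubted arrays 7 of 22 basement membrane genes and 13 of 38 matrix genes passed, where 593 of all 19938 genes did. Nnat, an imprinted membrane protein, gave the largest rise (3.10), being -2.41 at 21 days, with BC023105 (2.56), the clock output gene Dbp (2.32), the Fc receptor relative Fcrls (2.25) and the apelin receptor Aplnr (2.23). Lcn2, a neutrophil protein, gave the largest fall (-4.90), with Ibsp of bone, Car1 and Slc4a1 of red cells and Prg2 of eosinophils (-3.96, -3.86, -3.12 and -2.81). All 5 were highest in Dmdmdx replicate 5 among the 10 arrays, with replicate 3 next. On the 21-day side, double mutant replicate 5 had marrow markers 4.64 and bone markers 1.74 log2 units above the median of that age. The part of these arrays in the 5 values was not tested. Against 6 months, 2 genes passed (0.01%), Eif2b2 (0.64), a translation initiation factor, and Clic4 (-0.48), an intracellular chloride channel, and neither differed at 3 months itself (0.18 and 0.05).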

How the data were processed

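RNA of powdered frozen calf muscle was measured on Affymetrix Mouse Gene 1.0 ST arrays, each taken as 1 mouse. The authors deposited log2 values per probe set, made by RMA in Affymetrix Expression Console per the submitters' processing notes, with the version not given in the sources used here. No array mean at 21 days exceeded 7.17 log2 units, whereas those of the 3-month arrays spanned 7.57 to 7.66 and none of the 6-month arrays was under 7.69. The ages may have been normalized apart, which the sources used here do not state. Of 35556 probe sets, 21789 carry 1 gene symbol, 1621 several and 12146 none. Symbols were updated by Entrez ID (21698 matched) to RefSeq on GRCm38.p6. Where a gene had several probe sets (999 genes) the one with the highest mean over 60 arrays was kept, which left 19938 genes.

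A limma model (limma 3.58.1, R 4.3.3) with 12 group means was fitted to all 60 arrays (48 residual degrees of freedom), with moderated statistics and Benjamini-Hochberg adjustment over all 19938 genes. The script was tested on simulated data. Ages were therefore compared only as differences of differences. The 5 arrays per group limit the precision, and no 2 arrays held identical values. Each sample title carries a code of its own, taken as 1 animal, though no label says so outright; if not, p-values measure only the spread between these samples.

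Arrays with Xist above 8 log2 units, or with a mean of lymph node, marrow, bone, cartilage, skin or mammary markers more than 2 log2 units over the median at that age, were left out in alternatives. Other alternatives changed array centring, array weights, probe sets, a filter on dim genes (mean of at least 6), the arrays fitted, covariates and the threshold. Reading the calls in other comparisons without those arrays was added after seeing the data.

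The members and gene lists were chosen with earlier results of these data known. Genes are named by size of change, 12 in each direction, from those past the threshold with no overlap between the arrays, without predicted genes, Y-linked genes and Xist; Dmd, Utrn and Dag1; up to 4 genes that passed per list, by size; and the 5 largest each way in each difference of differences. The gene mutated in Largemyd is not analysed here.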

Additional observations from a re-analysis of the deposited data

Results flagged for a closer look

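A single array stood far from the other 4 of its group in 32 of the 190 groups of 5 examined (95 genes in each lineage), by Dixon's test on the gap to the nearest array. Chance gives about 1 in 20 groups, and values of one array are not independent. Dmdmdx replicate 5 accounts for 24 of the 32. It was the low array for 21 genes. Among basement membrane genes it stood at 8.93 for Col15a1, 10.15 for Nid1, 9.06 for Lama2, 9.02 for Col4a1, 8.64 for Col4a2, 8.72 for Lamb1 and 9.64 for Lamc1. Among other matrix genes it stood at 9.25 for Fbln7, 8.30 for Hmcn2, 9.51 for Mfap5 and 11.49 for Mmp2. For genes of the fibre membrane it gave 7.41 for Dmd, 10.45 for Dag1 and 7.44 for Nos1. The rest were Pdgfrb at 9.998, Myf5 at 6.36, Igf2r at 9.17, Zim1 at 7.20, Mir382 at 4.47, Jund at 8.70 and Cacna1a at 7.12. It was the high array for Rsad2 (10.92), Xk (8.83) and Cpox (10.03). Marrow, lymph node, bone and cartilage markers were high in the same array, and their part in these values was not tested.

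In the double mutant the high arrays were replicate 3 for Mfap4 (10.44) and Thbs4 (12.98), replicate 2 for Klrb1a (7.01), replicate 1 for Cyp4f18 (8.46) and replicate 5 for Nos1 (7.90). The low arrays were replicate 5 for Ocel1 (8.82) and Sntb2 (9.06) and replicate 4 for Myh3 (9.64).

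Among the 24 genes with the largest rises and falls, 4 differed from the change between C57Bl/6 and Largemyd in the limma test of the difference itself. Of all genes 3.18% did. These were Snord53 (1.69), Mmp12 (-2.62), Fbln7 (-0.86) and Akr1e1 (-4.69). The change at 3 months differed from that at 21 days for 9 of the 24 genes and for 11.2% of all genes. It was higher at 3 months for Mmp12 (1.53), Cilp (1.27), Fbln7 (1.64), Mfap4 (1.96), Hmcn2 (0.93), Col6a3 (1.62) and Klrb1a (1.19), and lower for Xk (-1.08) and Cd24a (-0.80). The 24 genes were picked by the size of their change at 3 months, which is a part of both differences. Their counts therefore cannot be weighed against the shares of all genes.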

How the results depend on the processing

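With 402 genes passing between the double mutant and Dmdmdx, array weights gave 1382, leaving out high-Xist arrays 150, arrays with other tissue 258 and both 87, the 10 arrays fitted alone 143 and an adjusted p under 0.01 181. Leaving out 1 array gave 206 to 441, with the lowest count without Dmdmdx replicate 5 and 249, 254 and 264 without double mutant replicates 3, 4 and 2. For the difference from Largemyd minus C57Bl/6 (635), array weights gave 2495, leaving out high-Xist arrays 299 and both kinds 420, and leaving out 1 array 422 (C57Bl/6 replicate 2) to 929. For the difference from 21 days (2233) the counts were 4603 with array weights, 1098 without arrays with other tissue and 593 without both, and 1646 to 2460 without 1 array. For the difference from 6 months (2) they were 1 with array medians subtracted, 317, 16 and 4 in the same order, and 1 to 6 without 1 array. No called value changed sign in any alternative run. Single genes kept their side of the threshold in 1937 cases, lost it in 426 and gained it in 14. No paired analysis was possible because the codes in the sample titles are not shared between the 2 groups, and the replicate numbers used here follow accession order. Signal over background was not analysed here, and the filter on dim genes, at a mean of 6, gave 421 genes for the main comparison.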

Other observations

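A stretch of chromosome 8 from Zfp869 to Cyp4f18 was read after its values were seen. Of 83 genes tested there 6 rose and 5 fell. The share of genes called was 3.25% on chromosome 8 as a whole (31 of 955), and over the other chromosomes it ran from 1.22% to 2.62%, where 2.02% of all genes were called. All 11 genes had the same sign from C57Bl/6 to Largemyd, and 6 passed there, where 392 and 301 of all 402 called genes did. The stretch holds Ocel1 (1.08), B3gnt3 (-0.88) and Cyp4f18 (-1.32). Outside the stretch, on the same chromosome, lies Cacna1a, a calcium channel subunit, at 7.12 to 7.49 in Dmdmdx and 8.03 to 8.26 in the double mutant, a rise of 0.76±0.09 (adjusted p = 9.08e-08 in limma) that passed without all doubted arrays (0.69, adjusted p = 0.0020). Within the stretch Jund, a subunit of the transcription factor AP-1, rose by 0.51±0.09, and Lsm4, which takes part in RNA splicing and decay, fell by 0.42 on the log2 scale. Both passed in each setting.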
